A study of Mus musculus with 2 samples.

Results

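Of the 5910 peaks of Notch1 binding that lay on nuclear chromosomes, 720 (12.2%, 95% interval 11.4 to 13.0) lay in intergenic DNA at a middle distance from genes. They were chosen by position alone. A peak had to overlap no protein-coding gene body of the GENCODE M21 annotation, and its edge had to lie more than 25 kb and at most 100 kb from the nearest protein-coding transcription start site of any transcript. The peaks came from chromatin immunoprecipitation and sequencing (ChIP-seq) of gamma delta T cells, the T lymphocytes with a receptor of the gamma and delta type. The mice were wild type, of strain C57BL/6 and at postnatal day 0 to 3; primary cells came from their thymus, and the Notch1 library was made with the rabbit antibody D1E11. A library of input DNA without antibody from the same kind of cells is not analysed here, and the number of animals pooled is not given in the sources used here. Since the Notch1 library is 1, without replicate, intervals cover counting error only and say nothing of the spread between animals. The score of a peak is the authors' own deposited value on an unstated scale and serves here to describe and rank peaks within the list. The read depth is unknown. A peak list holds no expression, so the labelled cell type could be looked at only through which loci carried peaks.

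Notch1 is a surface receptor. Binding of a ligand on a neighbouring cell leads to cleavage of the receptor, and the freed intracellular domain moves to the nucleus, where it acts through the DNA-binding protein RBPJ and co-activators of the Mastermind family. In T cell precursors Notch signalling drives commitment to the T lineage, and many of the sites it uses lie far from start sites in enhancers, which loop to their genes and often bind RUNX, ETS and E proteins as well. A distal peak need not act on the gene nearest to it, so the gene named with a peak below is a landmark. Peaks given below for a gene are those among the 720, unless peaks of other classes are named. A gene can have further peaks outside the band of 25 to 100 kb.

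Stretches of 9 of the 720 peaks are shown because the findings on loci, motifs and score turn on them. They are read on the plus strand of mm10 (GRCm38), 5′ to 3′. In the first 7, capitals mark the RBPJ core (TGGGAA, or TTCCCA on the minus strand) and the RUNX motif (TGYGGTY, with AACCACA and AACCGCA as minus-strand forms). These are stretches of the peaks beside the T cell receptor alpha and beta constant genes, which are nearest to the start sites of Dad1 and Prss2, and of peaks nearest to Tcf7, Hey1, Dusp10, Etv5 and Tnfsf11.
Dad1, chr14:54227420-54227659: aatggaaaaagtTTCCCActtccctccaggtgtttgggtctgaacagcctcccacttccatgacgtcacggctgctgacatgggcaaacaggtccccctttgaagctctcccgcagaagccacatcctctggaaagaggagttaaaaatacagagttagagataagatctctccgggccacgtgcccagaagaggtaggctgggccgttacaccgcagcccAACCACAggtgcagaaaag
Prss2, chr6:41554338-41554577: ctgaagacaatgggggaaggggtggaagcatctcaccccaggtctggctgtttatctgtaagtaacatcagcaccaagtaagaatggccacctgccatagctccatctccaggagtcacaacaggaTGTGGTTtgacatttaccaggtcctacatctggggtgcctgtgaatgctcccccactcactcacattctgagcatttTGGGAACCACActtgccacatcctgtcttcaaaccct
Tcf7, chr11:52314163-52314402: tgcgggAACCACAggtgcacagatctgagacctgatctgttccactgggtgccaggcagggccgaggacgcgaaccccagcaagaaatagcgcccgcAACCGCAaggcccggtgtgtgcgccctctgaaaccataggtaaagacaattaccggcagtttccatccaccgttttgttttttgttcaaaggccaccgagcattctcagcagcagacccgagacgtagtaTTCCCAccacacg
Hey1, chr3:8767076-8767315: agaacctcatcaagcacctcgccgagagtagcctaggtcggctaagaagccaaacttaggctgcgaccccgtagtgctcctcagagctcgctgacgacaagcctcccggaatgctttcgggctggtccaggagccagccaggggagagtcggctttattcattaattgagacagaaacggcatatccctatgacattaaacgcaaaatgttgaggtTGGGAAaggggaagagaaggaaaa
Dusp10, chr1:183987623-183987862: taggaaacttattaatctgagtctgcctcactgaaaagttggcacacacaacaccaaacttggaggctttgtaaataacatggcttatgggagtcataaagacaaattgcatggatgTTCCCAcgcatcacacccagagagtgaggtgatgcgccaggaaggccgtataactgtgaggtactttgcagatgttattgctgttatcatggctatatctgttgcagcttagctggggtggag
Etv5, chr16:22466360-22466599: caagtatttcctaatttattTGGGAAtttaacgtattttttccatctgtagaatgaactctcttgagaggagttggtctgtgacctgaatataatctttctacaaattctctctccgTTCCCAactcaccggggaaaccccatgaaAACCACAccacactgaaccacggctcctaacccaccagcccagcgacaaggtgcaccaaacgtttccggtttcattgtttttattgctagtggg
Tnfsf11, chr14:78356782-78357021: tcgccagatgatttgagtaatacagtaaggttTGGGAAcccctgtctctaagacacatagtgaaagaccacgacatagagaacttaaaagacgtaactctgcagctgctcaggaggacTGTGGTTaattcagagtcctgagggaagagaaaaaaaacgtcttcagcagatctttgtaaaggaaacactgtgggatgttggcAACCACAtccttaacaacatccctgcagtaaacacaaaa
The widest of the 720 peaks, upstream of Tnfaip3, held neither motif in its 1656 bp. Its stretch is centred on the 1 copy of the ETS form CAGGAAG, in capitals as its minus-strand letters.
Tnfaip3, chr10:19062004-19062243: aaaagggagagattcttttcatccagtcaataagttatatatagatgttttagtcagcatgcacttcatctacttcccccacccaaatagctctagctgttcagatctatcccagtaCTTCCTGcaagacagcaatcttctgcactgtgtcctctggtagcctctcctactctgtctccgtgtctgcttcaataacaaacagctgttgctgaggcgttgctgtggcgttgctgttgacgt
The last stretch shows a high-scoring peak at a run of CA dinucleotides, in capitals. The run was 56 bases inside the peak nearest to Runx3.
Runx3, chr4:135080340-135080579: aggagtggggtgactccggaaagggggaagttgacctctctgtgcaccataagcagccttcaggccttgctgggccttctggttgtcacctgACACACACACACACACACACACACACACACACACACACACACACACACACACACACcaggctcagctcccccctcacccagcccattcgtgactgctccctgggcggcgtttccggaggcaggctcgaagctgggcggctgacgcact

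The peaks of this distance band were sparser than those near genes and denser than those in gene deserts. The band, meaning all bases that meet the same rule outside assembly gaps, covered 409 Mb, or 15.4% of the nuclear genome, and held 1.76 peaks per Mb (exact Poisson 95% interval 1.63 to 1.89). Intergenic DNA 1 to 25 kb from start sites held 2.28 peaks per Mb (2.13 to 2.45), and DNA over 100 kb away held 1.22 (1.14 to 1.29). The 3 intervals do not overlap. Against 2.23 peaks per Mb over the nuclear genome, the ratio for the band was 0.789 (0.732 to 0.849). Within the band the density was nearly level, at 1.85 per Mb from 25 to 50 kb (350 peaks), 1.68 from 50 to 75 kb (209 peaks) and 1.69 from 75 to 100 kb (161 peaks), with overlapping intervals. It was 3.00 per Mb (2.62 to 3.42) at 1 to 5 kb and 1.28 (1.15 to 1.43) at 100 to 200 kb. Peaks lay upstream of the nearest start site in 420 cases (58.3%, 54.7 to 61.9), the same share as that of windows on a fixed grid over the band (58.3%).

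**Figure D1:**
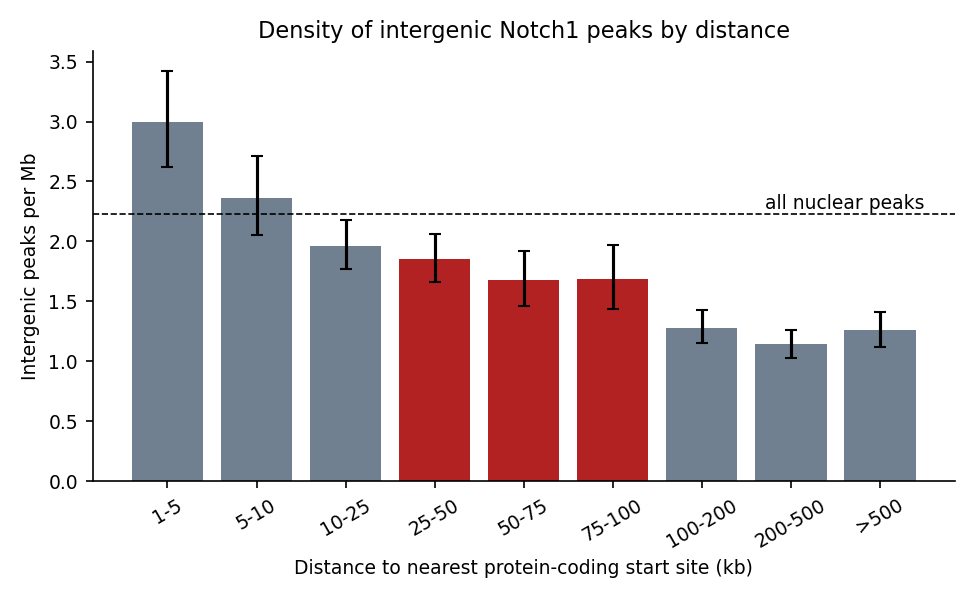
Intergenic peaks per Mb (bars, with exact Poisson 95% intervals) by distance in kb to the nearest protein-coding start site; red bars are the 720 peaks and the dashed line is the density of all nuclear peaks, 2.23 per Mb. Density falls from 3.00 per Mb at 1 to 5 kb to between 1.68 and 1.85 in the red bars and to 1.28 at 100 to 200 kb.

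The sex chromosomes held few of the peaks. Chromosome X held 16 of the peaks over 37.8 Mb of band, or 0.423 per Mb (0.242 to 0.687), and chromosome Y held 0 over 19.3 Mb, where 0 peaks allow up to 0.191 per Mb. Among the autosomes the lowest density was 1.05 per Mb (0.668 to 1.58) on chromosome 7 and the highest 2.97 (1.90 to 4.42) on chromosome 19. The sex of the animals is not given in the sources used here. Densities of all nuclear peaks by chromosome are not given here, so the low values are not shown to be particular to this band. Only assembly gaps were left out of the band, so repeated sequence counts among its bases.

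The 720 peaks were spread over many genes. Of 7980 protein-coding genes that are the nearest gene somewhere in the band, 612 (7.67%, 7.11 to 8.27) were nearest to at least 1 of the peaks. Most of these, 529, had 1 peak, 67 had 2, 10 had 3, 4 had 4, and Snx9 and Runx3 had 5 and 6. Genes with a Notch1 peak within 1 kb of a start site had more of these distant peaks. Such a promoter peak was present at 61 of the 612 genes (9.97%, 7.84 to 12.6) and at 309 of the other 7368 (4.19%, 3.76 to 4.68), a difference of 5.77 percentage points (95% interval 3.59 to 8.44). Genes with more band around them can collect more peaks, and the median amount of band was 75.3 kb for the former and 40.2 kb for the latter. Counted per Mb of band, the 370 genes with a promoter peak had 3.99 distant peaks (3.14 to 5.01) and the 7610 without one had 1.65 (1.53 to 1.79).

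For 6 of 16 gene lists the 95% interval of peaks per Mb of the listed genes' band lay above the 1.76 of all genes. These intervals were not widened over the 16 lists. They count each peak separately, although some peaks cluster at 1 gene. Runx3 was nearest to 6 of the 15 peaks of T lineage regulators. Hey1 was nearest to 3 of the 6 peaks of Notch targets, with neighbours at 99.2 and 99.5 kb. Such peaks were not merged, so the intervals may be too narrow. The shares of genes called below stand beside 7.67% of all genes that could be called. By density the list of cytokine receptors and NF-kB signalling was highest, with 9 of 20 genes nearest to a peak (45%) and 16 peaks per Mb (8.76 to 26.9). Homing and survival genes had 7 of 12 (58.3%) and 9.33 per Mb (4.27 to 17.7), and T lineage regulators 9 of 30 (30%) and 7.56 per Mb (lower limit 4.23). T cell receptor signalling genes had 6 of 19 (31.6%) and 6.42 per Mb (2.58 to 13.2). Genes of AP-1 and of feedback on MAP kinases had 4 of 19 (21.1%) and 5.78 per Mb (2.33 to 11.9), and Notch targets had 4 of 16 (25%) and 5.66 per Mb (2.08 to 12.3). The interval of the interferon-gamma program reached below the overall density, with 4 of 19 genes (21.1%) and 5.08 per Mb (1.65 to 11.9). So did those of the Notch pathway (2 of 16 genes, 3.26 per Mb, 0.395 to 11.8) and the interleukin-17 program (3 of 20 genes, 3.24 per Mb, 0.882 to 8.29). Lists overlap, genes are not replicates, and the lists are small. The lists were also chosen with earlier results of these data known, so their densities are a description and not a test.

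Lists that stand for other cells, and for ribosomal proteins, had between 4 and 16 genes that could be called, and their intervals are wide. Of the genes that could be called, 0 of 6 myeloid genes, 0 of 9 thymic stroma genes and 0 of 8 liver genes were nearest to a peak, with upper limits of 10.5, 5.17 and 8.64 peaks per Mb. Of 16 neuron genes 1 was called (Slc17a6, score 819), and of 6 alpha beta thymocyte genes 1 (Cd1d1, score 834). Of 4 B cell genes 2 were called. These were Cr2, a complement receptor gene (score 1041), and Bank1, which encodes a B cell scaffold protein (score 803), at 8.47 peaks per Mb (1.03 to 30.6). Of 8 cytosolic ribosomal protein genes 1 was called, Rpl34, with 2 peaks. The B cell density lay above that of T lineage regulators, and the alpha beta thymocyte (3.06 per Mb) and ribosomal lists (4.15) also lay above 1.76, but the intervals of all 7 lists held that value.

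**Figure D2:**
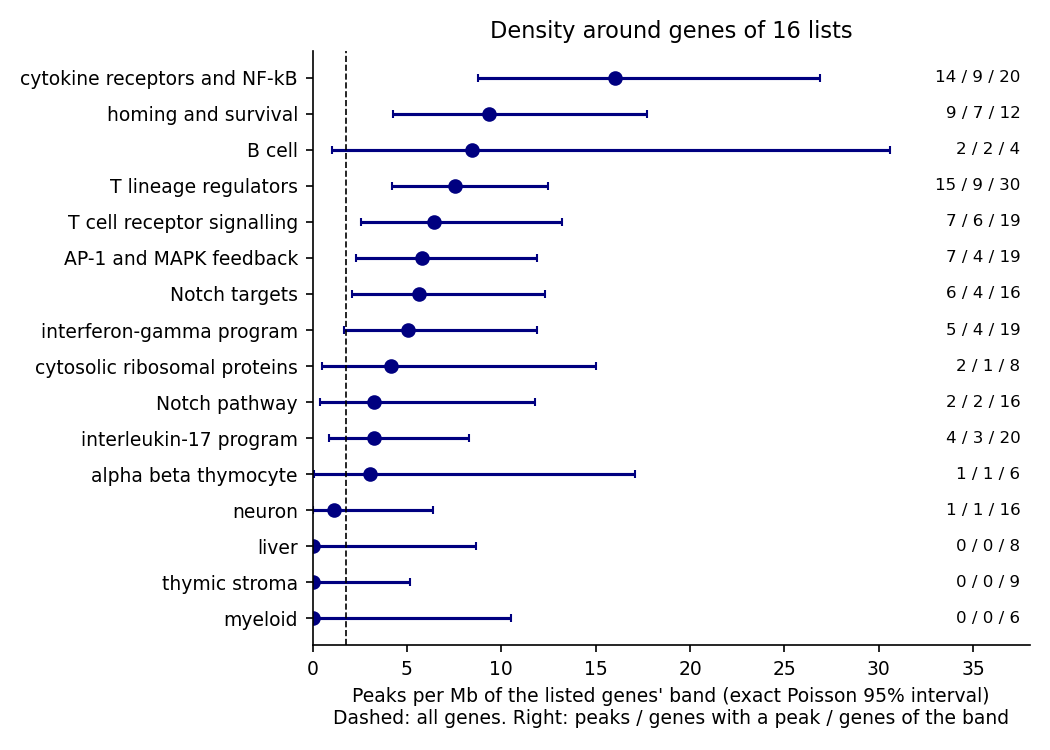
Peaks 25 to 100 kb from start sites per Mb of band around the genes of 16 lists (points, with exact Poisson 95% intervals); the dashed line is 1.76 per Mb over all genes, and the numbers at the right give peaks, genes nearest to one and genes that could be. The intervals of 6 lists, from cytokine receptors and NF-kB at 16 per Mb to Notch targets at 5.66, lie wholly above the line. All intervals count clustered peaks separately, and the lists were chosen with earlier results of these data known.

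The T cell receptor loci held 6 of the peaks, and scores at each locus ranged widely. Receptor segments are not annotated as protein-coding genes, so peaks beside them fell under the rule and were landmarked by other genes. The peak nearest to Dad1 (chromosome 14, 54227111 to 54227897) was 787 bp wide, scored 3100 and lay 2905 bp from Trac, the constant gene of the alpha chain. The interval between Trac and Dad1 is known to hold the enhancer of the alpha locus. The sequence printed above held a minus-strand RBPJ core at bases 13 to 18 and a RUNX motif at bases 222 to 228, and the whole peak held 2 cores and 1 RUNX motif. A second peak of 339 bp lay 402 bp from Trac and scored 831. At the beta locus 3 peaks lay between Trbc2, a constant gene, and Trbv31, an interval known to hold the beta enhancer. Their scores were 656, 1620.3 and 625, the highest for the 570-bp peak from 41554008 to 41554577 on chromosome 6, which lay 5656 bp from Trbc2. It held 2 cores and 2 RUNX motifs, and at bases 204 to 214 of the sequence shown a core and a RUNX motif overlapped. At the gamma locus 1 peak (chromosome 13, 19182799 to 19183252, score 844) lay 1722 bp from Tcrg-V4 and held 1 RUNX motif and 0 cores. The beta and gamma loci were singled out after their values were seen. The highest scores beside the alpha and beta constant genes were 3100 and 1620.3, beside a median of 718 over all nuclear peaks.

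Among T lineage regulators, Runx3 had the most distant peaks of any gene. RUNX3 is a transcription factor of CD8 and innate-like T cells. Its 6 peaks scored 510, 618, 871, 726 and 2310 upstream of the first start site, at 78.0, 53.3, 46.8, 40.6 and 40 kb, and 740 downstream, at 49.0 kb. The highest of these held the run of 56 bases shown above, and the other 5 held no run longer than 6 bases. None of the 6 held an RBPJ core or a RUNX motif. No further peak of any class lay within 100 kb of a start site of Runx3. The peak at 78.0 kb overlapped a region that RefSeq (GRCm38.p6) lists as a regulatory region active in dorsal root ganglion.

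Tcf7 encodes TCF1, a Notch-induced factor that commits precursors to the T lineage. Its peak in the band lay 31 kb upstream (chromosome 11, 52313995 to 52314514), was 520 bp wide and scored 906, above the upper quartile of the list (904). It held 1 RBPJ core and 3 RUNX motifs, and only 9.42% of its bases were soft-masked as repeats. Of 4 peaks of any class within 100 kb of a Tcf7 start site, it was the only one in the band. The highest score among the 4 was 997, and the nearest lay at 16.3 kb and scored 909. Id3, which encodes an inhibitor of E proteins induced by receptor signals, had a peak 25.6 kb upstream that scored 918, with 40.8% of its bases soft-masked and a run of 37 bases. In the band Tox2 had 2 peaks (scores 787 and 1042), and Ets2, Tox and Bach2 had 1 each (scores 782, 641 and 593). Peaks outside the band lay nearer to Bach2, at 1.93 kb (score 1656), and to Tox, at 12.8 kb (score 675). Of 27 genes of T cell and Notch biology that were looked up whatever their peaks, 8 were nearest to a peak of the band, namely Hes1, Tcf7, Id3, Runx3, Bach2, Tox, Cd69 and Cxcr4. Gata3, Bcl11b, Ets1, Satb1, Sox13, Il7r, Il17a, Ifng and Notch1 were among the 19 that were not.

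The targets of Notch had 6 peaks of the band at 4 genes. Hey1, a repressor induced by Notch in many tissues, was the nearest gene to 3. A peak of 511 bp at 99.5 kb upstream scored 1579 and a neighbour at 99.2 kb scored 631, while the one at 41.1 kb scored 655 and held a run of 38 bases. The first held the 1 RBPJ core shown above, at bases 217 to 222. The peak of the band nearest to Hes1, a repressor and the classical Notch target, lay 98.0 kb downstream and scored 717. It held 0 cores, and 75.6% of its bases were soft-masked. Hes1 also had a peak outside the band, within 1 kb of a start site, that scored 1057. Tcf7 has been described above. Cd44, which encodes an adhesion receptor of early thymocytes, had a peak at 46.8 kb that scored 657. Of the pathway's own genes, Maml3, a Mastermind co-activator, had a peak at 71.8 kb (score 815), and Rbpj itself had one at 68.1 kb (score 582). Both held 0 cores.

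Tnfaip3 and Dusp10, which restrain NF-kB and MAP kinase signals, were each nearest to a wide peak of high score. Tnfaip3 encodes A20, an inhibitor of NF-kB. Its widest peak (chromosome 10, 19061507 to 19063162) lay 45.9 kb upstream, spanned 1656 bp and scored 3100. The other 2 peaks nearest to this gene scored 614 and 579. Altogether 10 peaks of any class lay within 100 kb of its start sites. Dusp10, a phosphatase that acts on p38 and JNK kinases, had 3 peaks. The one at 25.1 kb upstream was 587 bp wide, scored 2094, held no soft-masked base and held 1 core. Those at 43.5 and 91.6 kb scored 626 and 628. Nfkbiz, an IkB-family regulator of cytokine genes, had a peak of score 822. In the cytokine group the receptor genes Il1r1, Il6st, Ifnar1 and Tgfbr2 had 2, 2, 1 and 1 peaks, with highest scores of 924, 903, 690 and 685. Smad3, which carries the TGF-beta signal, had 2 peaks of scores 1029 and 655. Fos, an AP-1 subunit, had 2 at 26.2 and 28.6 kb upstream, with scores of 1422 and 691. Tnfsf11 encodes the cytokine RANKL, with which T cells support thymic epithelium. It stood near 4 peaks with scores of 645, 1119, 1089 and 2469, the highest 1035 bp wide with 2 cores and 2 RUNX motifs.

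Among receptor signalling genes, Fyn, a Src-family kinase, had the highest score, 1617, in a narrow peak of 192 bp with a run of 34 bases. Ptprc, the CD45 phosphatase, had a peak scoring 1118 at 48.5 kb, and Cd28, a co-stimulatory receptor, one scoring 1039 at 62.2 kb. Rasgrp1, an activator of Ras, had 2 peaks of scores 515 and 510, and Cd69, an early activation marker, had 1 of score 468. Among homing genes, Cxcr4, a chemokine receptor of thymocytes, had 2 peaks at 52.4 and 54.3 kb upstream with scores of 674 and 1123, the latter 222 bp wide with a run of 38 bases. Itga4 and Itgb1, integrin genes, had narrow peaks of 217 and 225 bp (scores 1397 and 1079), each over 50% soft-masked. In the interleukin-17 program, Etv5, an ETS factor tied to the interleukin-17 fate of these cells, had a 504-bp peak 26.6 kb upstream with score 1356, 2 cores and 2 RUNX motifs. Irf4 had a peak of score 690. In the interferon-gamma program Xcl1 had 2 peaks (scores 674 and 664), and Fasl, Nr4a2 and Nr4a3 had 1 each (scores 610, 963 and 714). Il2, in no list and singled out after its values were seen, had peaks 31 and 47.3 kb upstream with scores of 1308 and 496.

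**Figure D3:**
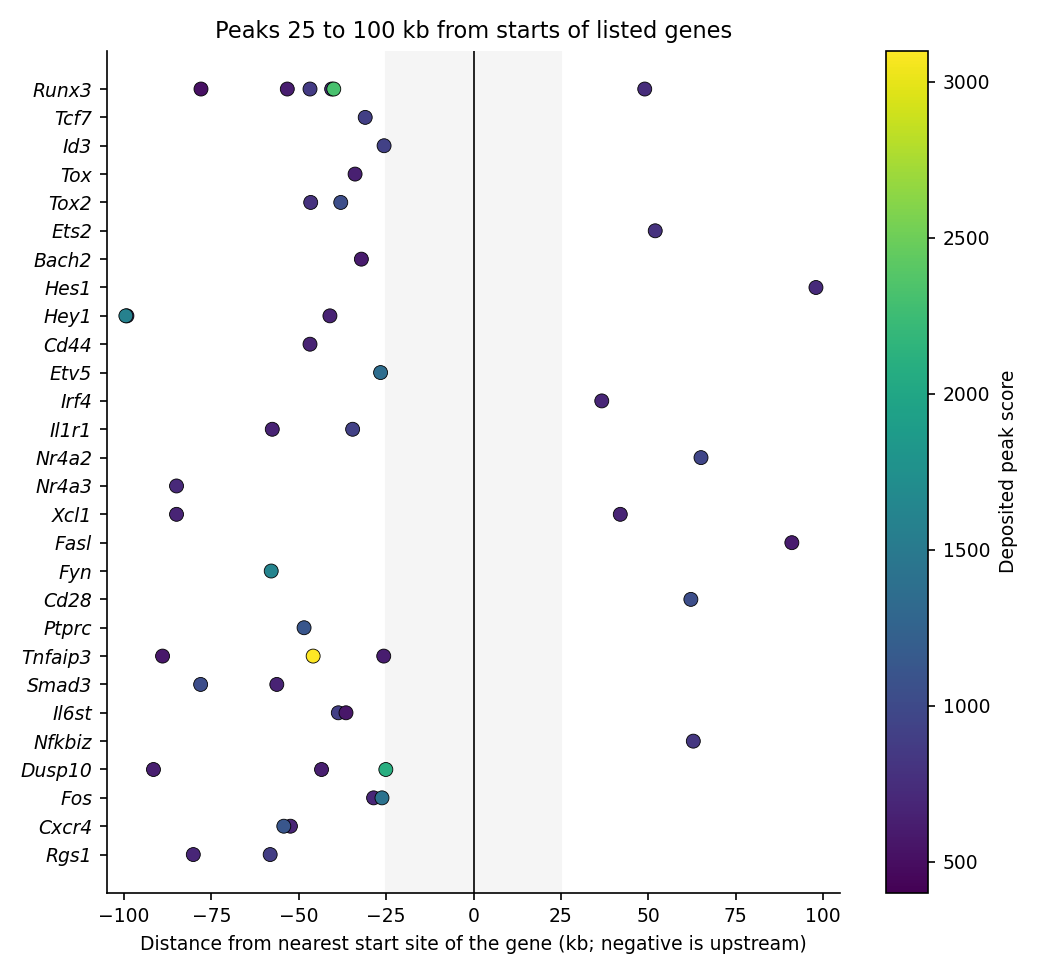
Signed distance in kb from the nearest start site (negative is upstream; the shaded span is within 25 kb) of the 47 peaks nearest to 28 listed genes, with colour for the deposited score. Runx3 has 6 peaks between 78.0 kb upstream and 49.0 kb downstream, and the Tnfaip3 peak at 45.9 kb has the highest score, 3100.

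Clusters were few. With gaps of up to the distance customary for joining clustered enhancers, between 12 and 13 kb, 600 of the peaks stood alone and the other 120 formed 53 runs, 45 of them pairs. Counting peaks of every class as neighbours, 124 (17.2%, 14.6 to 20.2) had another peak within that distance, and for all but 4 of these a neighbour was itself one of the 720. Intergenic peaks 1 to 25 kb from start sites had a neighbour in 26.8% of cases and those over 100 kb away in 9.16%. The differences were -9.57 percentage points (-16.6 to -2.33) and 8.06 (2.53 to 14.0). Their intervals, at a level of 99.93% shared over 71 differences between sets, exclude 0. The overall density of peaks falls in the same order with distance, as given above.

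The densest run held 5 peaks within 3.66 kb on chromosome 2 (32492908 to 32496570), between Fam102a and Slc25a25, with scores of 663 to 1809. Snx9, which encodes a sorting nexin of endocytosis, had 5 within 9.15 kb, of scores 641 to 1306. Spsb1, an adaptor of a ubiquitin ligase, had 4 within 3.13 kb, of scores 734 to 2128. Smndc1, a splicing factor gene, had 3 within 3.83 kb (scores 884, 1662 and 1861) and another peak at 50.4 kb that scored 2222. Of the 4 Smndc1 peaks 3 held 1 core each, and none held a run over 14 bases.

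The share of peaks with an RBPJ core did not differ from that of windows of the band beyond the shared-level interval. In the central 300 bp, read on both strands, TGGGAA occurred in 194 of the 720 peaks (26.9%, 23.8 to 30.3). These letters are also the core of the Ikaros site. Windows of 300 bp on a grid over the same band, outside peaks, held it in 24.5% of 81411 cases, a difference of 2.41 percentage points whose shared-level interval (-2.82 to 8.37) holds 0. Peaks 1 to 25 kb away held it in 25.5% and peaks over 100 kb away in 20.9%, and neither difference excluded 0. Under 40% GC the core was in 25.1% of the peaks (20.1 to 30.9), 20.1% of windows, 15.9% of peaks 1 to 25 kb away and 16% of peaks over 100 kb away. At 40 to 50% GC these shares were 28.2%, 27%, 27% and 27.8%. At 50% GC and over the order turned, at 26.9% (20 to 35.1), 28.6%, 30.8% and 34.6%. These differences within GC bands were not tested. The longer consensus YGTGRGAA, which contains the core when its R is G, was in 5.56% of the peaks and 4.17% of the windows (difference 1.39, -0.880 to 5.05). The core's letters reversed but not complemented, AAGGGT, were in 13.2% and 13.1%. Over whole peaks, 503 held no core, 181 held 1, 34 held 2 and 2 held 3. A pair of facing cores 15 to 17 bp apart, the arrangement on which Notch complexes can dimerize, was found in 0 of the 720, which allows a share of up to 0.417%, and in 1 of all 5910 peaks.

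RUNX and ETS motifs were more frequent in the peaks than in the windows of their band. The RUNX motif TGYGGTY was in 116 peaks (16.1%, 13.6 to 19.0) and 11.4% of windows, a difference of 4.75 percentage points (shared-level interval 0.626 to 9.93). By base composition, it was in 9.88% of peaks and 10.7% of windows under 40% GC, in 17.3% and 11.7% at 40 to 50% GC, and in 24.6% and 12.1% above that. The ETS motif CCGGAAR was in 23 peaks (3.19%, 2.14 to 4.75) and 1.45% of windows (difference 1.74, 0.149 to 4.80). At or above the upper quartile of score its share in the peaks was 1.62%. The form CAGGAAG was in 12.8% and 9.34% (difference 3.44, -0.217 to 8.26). The E-box CACGYG of HES and MYC proteins was in 45 peaks (6.25%) and 3.60% of windows (difference 2.65, 0.213 to 6.45). The EGR string GCGKGGGCG was in 4 peaks (0.556%) and 0.0393% of windows (difference 0.516, 0.0790 to 2.50). These 4 lay nearest to Runx3, Zfp706, Pus7l and 1600014C23Rik, and 3 of them had over 50% GC. Peaks 1 to 25 kb from start sites held TGYGGTY in 16.4%, CCGGAAR in 3.02% and CACGYG in 6.92%. Those over 100 kb away held them in 11.4%, 1.58% and 2.96%. No difference between the 720 peaks and these peak sets excluded 0 for these motifs. The windows were not matched to the peaks for repeat sequence. An RBPJ core and a RUNX motif occurred together in 42 peaks (5.83%, 4.34 to 7.79) and in 2.84% of windows, a pair chosen after the values of both motifs were seen. RUNX alone already differed between peaks and windows. The joint shares were not set against those expected from the single motifs, so they do not show that the motifs go together.

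Against the other intergenic peaks, 4 of 38 motif differences excluded 0. The CTCF core AGRKGGCR was in 6.81% of the peaks, 12.2% of peaks 1 to 25 kb from start sites (difference -5.40, -10.5 to -0.216) and 7.18% of windows. CTCF binds chromatin boundaries and loop anchors. Against peaks over 100 kb away, the E-box CAGSTG of E proteins was more frequent (30.6% and 19.8%, difference 10.8, 3.63 to 18.0), as was the KLF string CCACNCCC (9.86% and 4.83%, difference 5.03, 0.795 to 9.81). The GATA motif WGATAA was less frequent (31.8% and 42.3%, difference -10.5, -18.1 to -2.46). Base composition differed in the same comparison, with a median GC of 42.7% in the peaks and 37.8% in those over 100 kb away. Within the band of 40 to 50% GC the E-box was in 36.9% and 27.8%, the KLF string in 9.22% and 8.58%, and GATA in 30.3% and 31.1%. Under 40% GC the E-box was in 15.2% and 14.4%, and GATA in 40.7% and 50.1%.

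For 11 of 19 motifs no difference excluded 0, from windows or from either peak set. Besides the RBPJ strings and CAGGAAG, these were the strings WWCAAAG of TCF and LEF (27.2% of peaks, 26.3% of windows), AACAAWG of SOX proteins (14.0% and 14.1%), and TGASTCA of AP-1 (6.39% and 4.91%). They also included TTCYNRGAA of STAT proteins (4.03% and 4.68%), WNTRGGTCA of ROR proteins (4.03% and 4.11%) and a string of IRF proteins made of 2 copies of GAAA with 2 bases between (3.47% and 5.09%). The NF-kB string was in 4.31% and 3.93%. A match says only that the letters are present, and a difference that includes 0 does not show that shares are equal.

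**Figure D4:**
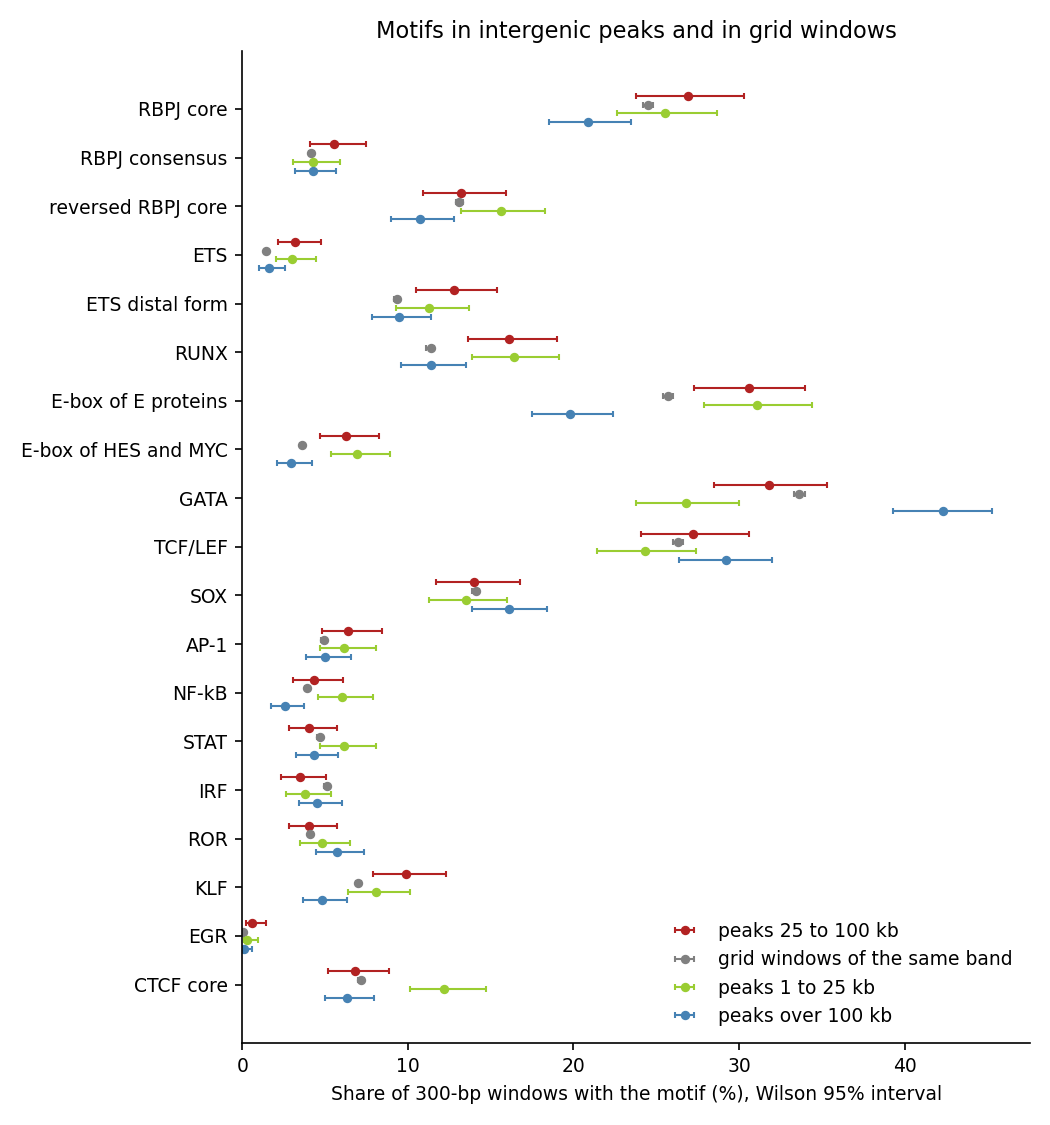
Share in percent of 300-bp windows that hold each of 19 motifs, with Wilson 95% intervals, in the 720 peaks (red), in grid windows of the same band (grey), and in intergenic peaks 1 to 25 kb (green) and over 100 kb (blue) from start sites. RUNX is at 16.1% in red and 11.4% in grey, while the RBPJ core is at 26.9% and 24.5%.

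Scores ranged from 67.9 to 3100, with a median of 720 and quartiles of 643 and 909. Of the peaks, 364 (50.6%, 46.9 to 54.2) lay at or above the median of all nuclear peaks, and the shares in the 2 other intergenic sets (49.4% and 47.8%) did not differ from this by more than their shared-level intervals. The highest score, 3100, was shared by 5 of the 720, nearest to Rpusd4, Tnfaip3, Axin2, Dad1 and Pak3, and by 36 peaks in the whole list, with 4 peaks above it. Of the 5, the peak at Rpusd4 had 72.2% of its bases soft-masked and 37.2% of its 32-base strings repeated elsewhere in the assembly. The shares of repeated strings were 13.1% at Pak3, 8.70% at Axin2 and 0% at Tnfaip3 and Dad1.

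High scores came from narrow and from wide peaks. Widths ran from 152 to 1656 bp with a median of 370. Across the 687 peaks under 500 bp score fell with width (Spearman's rho -0.532), and across the 33 wider ones it rose (0.419). These are descriptions over peaks of 1 library. Peaks of equal width often shared an identical score, such as 727.03 at 330 bp nearest to Ivns1abp, Pdgfa and Rmdn2. Others did not, as at 370 bp, with 684.47 nearest to Mme and Veph1 and 544.24 nearest to Trpm1. How far the score follows from width by its construction was not tested, so high scores of narrow peaks need care. The 81 peaks under 250 bp had a median score of 1099, and 25.9% (17.6 to 36.4) held a run of at least 20 bases of 1 base or 1 dinucleotide repeated. Only 7.41% (3.44 to 15.2) had a neighbour. The 639 wider peaks had a median score of 692, with a run in 9.39% (7.36 to 11.9) and a neighbour in 18.5% (15.6 to 21.7). Of the 33 of 500 bp or more, 18 (54.5%, 38 to 70.2) had a neighbour, and their median score was 1243. The 30 peaks that scored 1500 or more split into 13 under 250 bp, 8 with a run and 0 with a neighbour, and 17 wider ones, 3 with a run and 10 with a neighbour. The narrow ones include those nearest to Lsm3 (152 bp, score 2772), Kcns2 (156 bp, 1841) and Fyn. The wider ones include Tnfaip3, Dad1, Tnfsf11, Smndc1, Spsb1, Dusp10, Prss2 and Hey1. These limits of width and score were set after the values were seen. The part of repeat sequence in the scores was not tested.

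**Figure D5:**
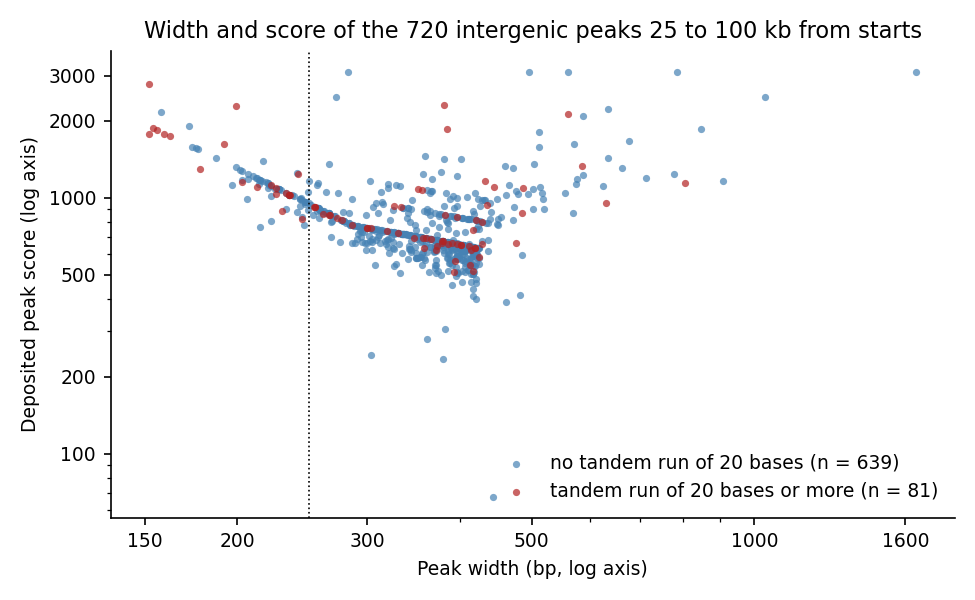
Deposited score against width in bp of the 720 peaks, both on log axes; red points hold a tandem run of at least 20 bases (n = 81) and the dotted line marks 250 bp. Scores fall with width up to about 500 bp along narrow tracks and are high again among wider peaks, up to 3100 at 1656 bp.

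The peaks held less repeat sequence than their surroundings. The median share of soft-masked bases was 17%, against 29.7% for windows of the band, and 73 (10.1%, 8.14 to 12.6) were over 50% soft-masked, against 35.4% of windows. Tandem runs of at least 20 bases went the other way, at 11.2% of peaks (9.14 to 13.8) and 5.11% of windows, over whole peaks in the first case and 300 bp in the second. Any 32-base string found more than once in the assembly was in 221 peaks (30.7%, 27.4 to 34.2). Against both other intergenic peak sets the differences in these 3 measures included 0.

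Many of the peaks were near genes of other types. Some 117 (16.2%) overlapped a gene that is not protein-coding, 86 of them a long intergenic non-coding RNA, and 51 (7.08%) lay within 1 kb of such a start. In all, 412 (57.2%) overlapped a gene of some type or lay within 25 kb of the start of one. The same shares are not given for windows of the band. These counts therefore do not show whether the peaks differ from the band in this. Of 888 regions that RefSeq lists as curated regulatory or other biological regions, 2 were overlapped, the Runx3 region named above and the VISTA enhancer mm646 near Hhat (peak score 1069). A further 3 peaks lay within 2 kb of one, nearest to Mn1, Tgfbr2 and Lclat1, and that at Tgfbr2 was 361 bp from an enhancer responsive to Hedgehog.

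The limits of distance cut through a continuous range. Just inside 25 kb lay peaks nearest to Mitf and Gng11 (scores 674 and 664, both at 25.1 kb), and just outside lay peaks nearest to Scn11a and Ccdc60 (scores 672 and 1112, both at 24.8 kb). Just inside 100 kb lay peaks nearest to Hey1 and Alcam (scores 1579 and 1274), and just outside lay those nearest to Ift57 and Tox (scores 1094 and 759).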

How the data were processed

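Fixation was 5 min in 0.5% formaldehyde, and PCR ran for 18 cycles, per the labels' protocols. Reads were handled with SAMtools 0.1.18 and Bowtie 1.0.0 on mm10, per the submitters' processing notes. Peak names begin with MACS, whose settings, control and handling of duplicates stay unstated (not given in the sources used here). The deposited list of 5913 peaks (3 mitochondrial, left out) gives position and a score on an unstated scale, made by the authors.

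Peaks were assigned with GENCODE M21 (21938 protein-coding genes) on GRCm38, positions counted from 1. Grid windows were 300 bp every 5 kb under the same rule, without peaks or unknown bases. Motifs were scanned on both strands. Shares carry Wilson 95% intervals. Differences of features and motifs between sets carry Newcombe intervals, widened (Bonferroni) over 71 differences, so an interval that excludes 0 is the test. The difference in promoter peaks is not among the 71 and carries an interval at 95% that was not widened. No test between conditions was possible. Of 475 list entries 474 matched. Named peaks were the 15 of highest score, up to 8 or 3 per list, the 10 genes with most peaks, the 5 densest runs, those at the limits and 27 genes. Members and lists were chosen with earlier results of these data known. Calculations used Python 3.11.15, NumPy 2.4.6, SciPy 1.17.1 and numba 0.67.0, and were tested on simulated data. Some items that the rule takes are not reported here.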

Additional observations from a re-analysis of the deposited data

How the results depend on the processing

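Of 83 alternatives over 13 results, 59 stayed within the counting interval and 24 moved. Most of these results are shares, which have no direction that could reverse. Counting only peaks with little repeat sequence (under 20% soft-masked, no repeated string), 11.4% of peaks were in the band, 20.7% had a neighbour and 4.04% of genes had a peak. With genes of every type, a rule that kept 308 of the 720 peaks among its 706 and so describes mostly other peaks, the density ratio was 0.615, the ETS motif was in 1.98% and 12.7% had a neighbour. In the central 200 bp the core was in 17.5%, the longer consensus in 3.89%, RUNX in 10.6%, ETS in 1.94% and the CTCF core in 4.17%; in whole peaks RUNX was in 19.2%. At or above the upper quartile of score the consensus was in 3.78%, RUNX in 20% and ETS in 1.62%. At or above the median score 14.3% had a neighbour and 4.09% of genes had a peak. Neighbours within 5 and 25 kb gave 11.5% and 25.1%. Any repeated string was in 30.7%, and 1.81% were over 80% soft-masked. Giving peaks to any gene within 100 kb called 13.5% of genes. Leaving out peaks under 250 bp, an alternative added after seeing the data, put 44.3% at or above the median score and called 6.80% of genes. With all the peaks of the band, 50.6% lay at or above the median score. Shorter windows lower motif shares and fewer peaks lower the share of genes called by construction; for the others the cause was not tested. No paired analysis was possible because 1 Notch1 library has no replicate to pair or leave out. Read depth is unknown, and the input is not analysed, so no score could be set against background.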
